A study of Mus musculus with 11 samples.

Results

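H3K27me3, a histone modification laid down by the Polycomb system and found at repressed genes, was examined at 10 genes of the Sox family in the embryonic mouse forebrain. The genes were taken by name: *Sox1*, *Sox2*, *Sox9*, *Sox11* and *Sox21* formed the neural members, and *Sox7*, *Sox8*, *Sox14*, *Sox17* and *Sox18* formed the other members. They are 10 of the 20 annotated protein-coding Sox and Sry genes, and 10 of the 21755 protein-coding genes on chromosomes 1 to 19 and X. For each gene, the peaks over the gene body and 10 kb either side (mm10) were collected in each region, and the share of the bases of this window that lay under peaks is called the window coverage. Peaks were found in the windows of 9 of the 10 genes in every region, against 36.1% of all protein-coding genes, and *Sox11* had none. *Sox1*, *Sox2*, *Sox21* and *Sox14* had the highest window coverage, whereas the promoters of *Sox7*, *Sox8*, *Sox17* and *Sox18* and, of the neural members, *Sox2* were covered in every region by at least 50%. Of all protein-coding genes, 4.72% had a promoter covered to this extent in every region.

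SOX proteins are transcription factors that bind DNA through a high-mobility-group (HMG) box. *Sox1* and *Sox2* keep neural progenitors in the undifferentiated state, *Sox21* and *Sox14* belong to a related subgroup that mostly represses transcription, *Sox9* acts in neural stem cells, glia, cartilage and the testis, and *Sox11* acts in newborn neurons. *Sox7*, *Sox17* and *Sox18* form the F subgroup, known from endoderm and from blood and lymph vessels. *Sox8* is a relative of *Sox9* in glia, neural crest and the testis, and *Sox14* marks sets of interneurons in the diencephalon, midbrain and spinal cord, so these 5 genes are not all endodermal and are called the other members here. Polycomb complexes are recruited mainly to CpG-rich sequence around gene starts, and many developmental transcription factors carry H3K27me3 in tissues where they are off.

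The modification was profiled by CUT&Tag, which tags and sequences the DNA beside antibody-bound nucleosomes, in wild-type C57BL/6J embryos. The regions were the cortex (CTX) and the ventral ganglionic eminences (GEs), which were divided into a medial (MGE), a caudal (CGE) and a lateral (LGE) part. The 11 samples comprised 2 from MGE and 3 each from CGE, LGE and CTX, and tissue of several embryos was pooled. The titles number 2 replicates in each region, which are the biological replicates of the study, and in CGE, LGE and CTX 2 of the libraries have the second number. The labels give no age per sample, and their dissection protocol names E12.5 and E14.5 (days of embryonic development), with E12.5 the age named for this assay in the article. The samples of a region were merged before peaks were called, so each region is 1 list, no value has a replicate error, no test between regions was possible, and differences are given as sizes only.

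The 4 lists held 15384 to 19196 peaks covering 24.5 to 32.9 Mb, with a median peak width of 1248 to 1445 bases, and MGE was the smallest and CGE the largest. A promoter, meaning the 2 kb before the 5′ end, is called marked below where peaks took up 50% or more of it and free where they took up none. Among the marker genes checked, the forebrain genes *Emx1*, *Nkx2-1*, *Lhx6* and *Nr2f2* had a marked promoter in every list, whereas *Dlx2* and *Neurod6* had no covered promoter base in any list. The free promoter of *Dlx2* lay in a window covered over 41.9% to 49.1%, and that of *Neurod6* in one covered over 4.33% to 4.96%. Promoters of the microglial markers *Csf1r*, *Cx3cr1* and *Aif1* and of the endothelial markers *Pecam1* and *Cdh5* were also free in all 4 lists, while *Kdr* (84.0% to 100%), the meningeal *Foxc1* (84.2% to 100%) and *Col1a1* (100%) and the hindbrain gene *Hoxa2* (80.6% to 100%) were marked and *Hoxb4* was covered over 20.3% to 25.1%. The article describes *Nkx2-1* and *Lhx6* as MGE genes, *Emx1* as a cortex gene and *Nr2f2* as enriched in CGE. Their promoters were marked in that region too, at 100%, 100%, 97.35% and 54.55%, so a marked promoter did not set it apart. In a dissected region, a mark carried by all cells and a mark carried by part of them cannot be told apart, and a free promoter says nothing of expression.

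The sequence before the gene start is shown for the neural members with the highest and the lowest promoter coverage, *Sox2* and *Sox11*, and for the other member with the lowest, *Sox14*. The other member with the highest promoter coverage was *Sox7*. Each run holds the 250 bases upstream of the start given by RefSeq on GRCm38.p6, written 5′ to 3′ on the strand of the gene, with each CG dinucleotide in capitals. They lie at chr3:34649745-34649994 (plus strand), chr12:27342719-27342968 (minus strand) and chr9:99876171-99876420 (minus strand), in that order.
Sox2: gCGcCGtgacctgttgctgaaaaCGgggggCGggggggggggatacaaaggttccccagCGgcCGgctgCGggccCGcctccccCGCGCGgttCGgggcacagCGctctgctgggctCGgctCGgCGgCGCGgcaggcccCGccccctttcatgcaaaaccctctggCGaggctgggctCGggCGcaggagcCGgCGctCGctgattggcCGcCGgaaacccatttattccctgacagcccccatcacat
Sox11: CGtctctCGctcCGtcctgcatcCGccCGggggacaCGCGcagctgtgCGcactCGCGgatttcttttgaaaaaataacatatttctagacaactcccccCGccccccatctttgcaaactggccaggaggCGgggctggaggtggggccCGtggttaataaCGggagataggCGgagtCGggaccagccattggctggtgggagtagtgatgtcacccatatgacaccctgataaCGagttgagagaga
Sox14: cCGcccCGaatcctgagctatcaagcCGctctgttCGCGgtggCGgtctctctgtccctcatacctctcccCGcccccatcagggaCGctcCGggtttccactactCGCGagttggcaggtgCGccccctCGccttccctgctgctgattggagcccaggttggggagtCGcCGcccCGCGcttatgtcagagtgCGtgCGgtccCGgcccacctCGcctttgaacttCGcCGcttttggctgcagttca

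The 250 bases of *Sox2* held 27 CG dinucleotides, those of *Sox14* held 23 and those of *Sox11* held 17. All 250 bases lay under a peak in every list at *Sox2* and *Sox14*, and none did in any list at *Sox11*. A matching RefSeq entry was used for 6 of the 10 members. *Sox1* held 29 CG dinucleotides, *Sox8* held 18 and *Sox21* held 17, against a median of 6 over the 32851 promoters of the same table, of which 92.1% held at least 1 CG (a motif that reads the same on both strands and cannot overlap itself). The covered *Sox21* and the free *Sox11* thus had the same CG count in this stretch.

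The peaks along each gene are drawn in the map of the 10 loci.

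**Figure D1:**
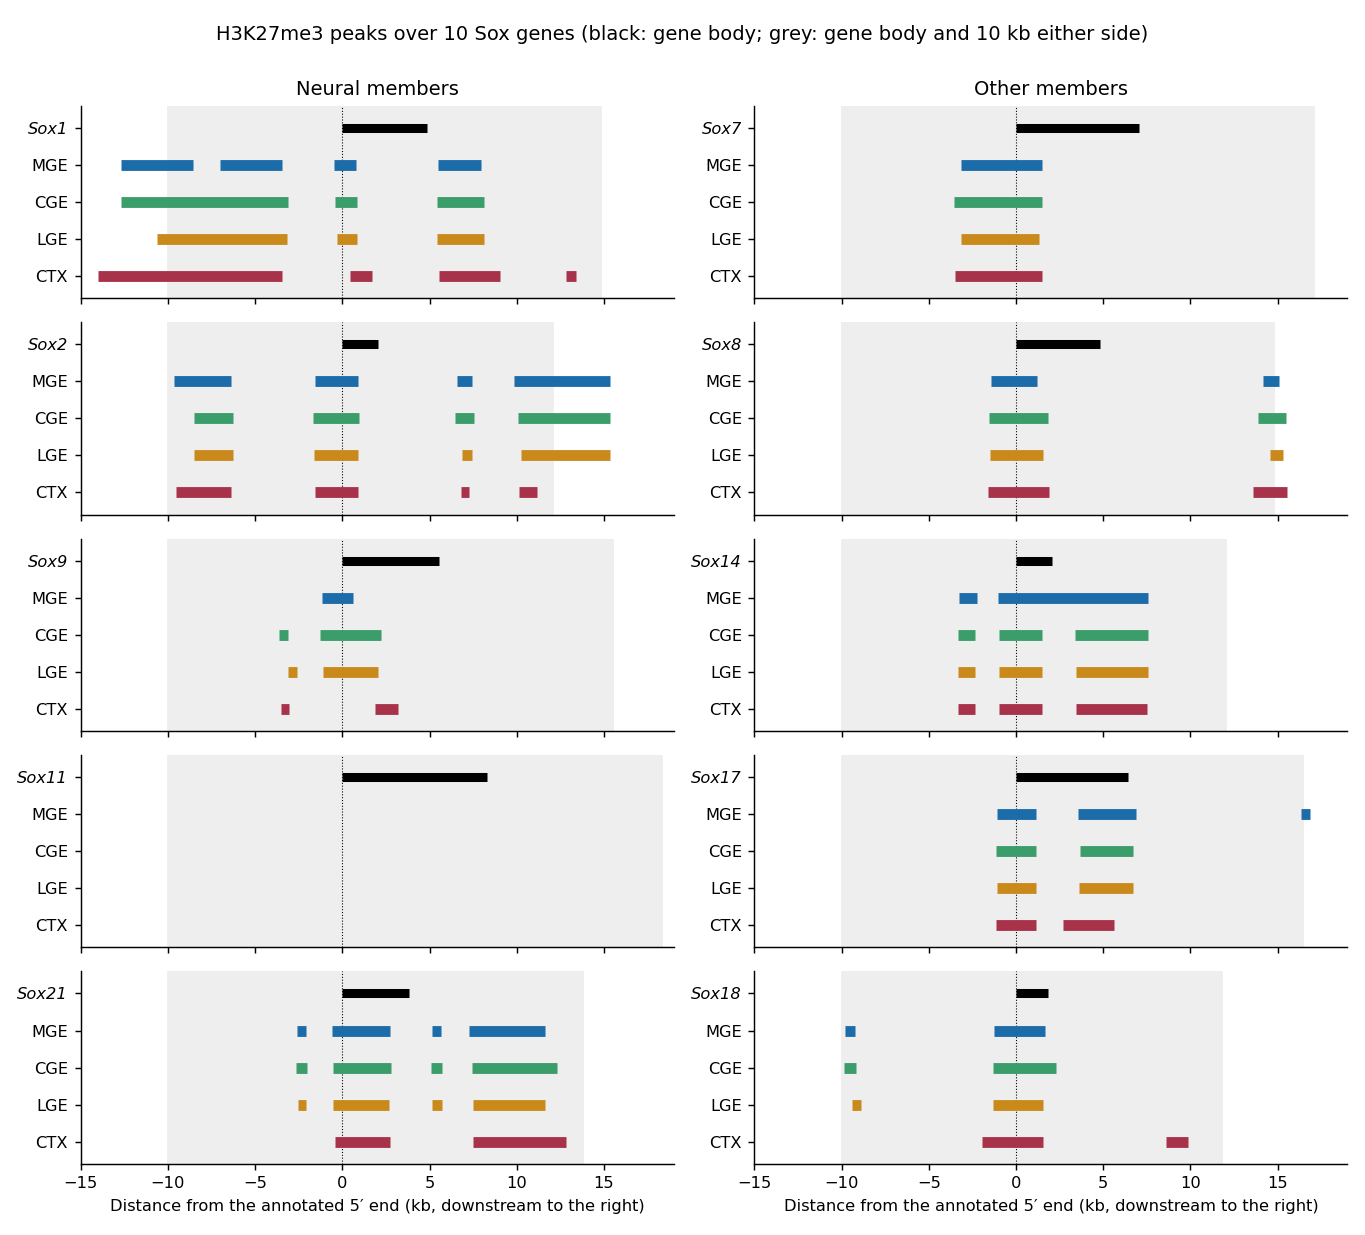
H3K27me3 peaks (coloured bars, 1 row per merged list) along 10 Sox genes, by distance from the annotated 5′ end in kb with downstream to the right; the black bar is the gene body and the grey field the gene body with 10 kb either side. *Sox11* has no peak in any list, the 5 other members have a peak over the 5′ end in every list, and *Sox1*, *Sox2* and *Sox21* have further wide peaks in the flanks. So does *Sox14*, with 4118 to 4178 bases downstream in CGE, LGE and CTX, and in MGE as part of a peak of 8634 bases.

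Among the neural members, *Sox1* (ENSMUSG00000096014.1, chr8:12395295-12400126, plus strand) is an intronless coding gene of neural progenitors. Its window coverage was 48.1% in CTX, 35.2% in MGE, 43.6% in CGE and 42.8% in LGE. Most of the covered bases lay in an upstream block, which in CGE was 1 peak of 9605 bases that ended 3.10 kb before the 5′ end and in MGE was divided into a peak of 4177 and a peak of 3574 bases. A narrower peak lay over the 5′ end in the 3 GEs, reaching 485 bases upstream in MGE, 418 in CGE and 309 in LGE. In CTX no peak lay over the 5′ end, and the nearest one began 420 bases downstream and covered 54.2% of the coding sequence, none of which was covered in the GEs. A further peak began 5.42 to 5.51 kb downstream of the 5′ end in each list, beyond the gene, and extended to 9.06 kb in CTX. The window is shared with the non-coding *Sox1ot*, which is annotated on the same strand, and peaks carry no strand.

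*Sox2* (ENSMUSG00000074637.7, chr3:34650405-34652461, plus strand), the pluripotency and neural stem cell factor, is also a single-exon coding gene and lies inside the non-coding *Sox2ot* on the same strand. Window coverage was 32.3% in CTX, 40.0% in MGE, 36.1% in CGE and 32.4% in LGE, so MGE was the highest and LGE and CTX were nearly equal. Its 4 peaks per list lay upstream (from 9.66 to 6.37 kb before the 5′ end in MGE, and from 8.49 to 6.27 kb in CGE), over the 5′ end, 6.44 to 7.55 kb downstream at their widest, and from 9.87 to 10.2 kb downstream onward. The peak over the 5′ end was 2464 to 2641 bases wide and covered 93.7% to 97.5% of the coding sequence. The farthest peak spanned 5105 to 5456 bases in the GEs and 1027 bases in CTX.

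*Sox21* (ENSMUSG00000061517.8, chr14:118233232-118237030, minus strand), a repressor of the same B subgroup, had a window coverage of 35.9% in CTX, 36.7% in MGE, 40.0% in CGE and 35.4% in LGE. A peak of 3197 to 3337 bases over the 5′ end covered the whole coding sequence in every list, and a second peak of 4146 to 5349 bases lay 7.25 to 12.8 kb downstream of the 5′ end. The 2 short peaks at 2.02 to 2.63 kb upstream and 5.06 to 5.74 kb downstream were called in the 3 GEs and not in CTX. Apart from these short peaks, the 4 lists placed the mark over the same stretches, and 71.2% of the bases covered in any list were covered in all 4.

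*Sox9* (ENSMUSG00000000567.5, chr11:112782224-112787760, plus strand), the gliogenic and chondrogenic factor, had lower values, with a window coverage of 7.14% in CTX, 7.09% in MGE, 15.7% in CGE and 14.4% in LGE. MGE, CGE and LGE had a peak over the 5′ end, of 1811, 3510 and 3196 bases. CTX had none there, and its nearest peak began 1847 bases downstream. No base of the *Sox9* window was covered in all 4 lists. The peak over the 5′ end had a −log10 q (the significance that the peak caller gave) of 6.36 in MGE, 14.3 in CGE and 2.77 in LGE, at percentiles 67.2, 73.1 and 34.9 of the peaks of these lists. The 2 CTX peaks were weaker, with a −log10 q of 1.93 and 1.79 (percentiles 23.1 and 19.6). With peaks limited to q under 0.001, the *Sox9* promoter coverage stayed at 59.8% in MGE and 63.6% in CGE and was 0% in LGE and CTX.

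*Sox11* (ENSMUSG00000063632.6, chr12:27334264-27342574, minus strand), a factor of newborn neurons, had a window coverage of 0% in all 4 lists. The nearest peak to its 5′ end was 1050819 bases away in MGE, 855885 in CGE, 261736 in CTX and 19877 in LGE. The neural members therefore included both the gene with the highest mean window coverage of the 10, *Sox1* at 42.4%, and the only one without a peak.

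Among the other members, *Sox7* (ENSMUSG00000063060.6, chr14:63943673-63950732, plus strand), of the F subgroup, had a single peak per list, from 3.18 to 3.55 kb upstream to 1.29 to 1.47 kb downstream of the 5′ end. Window coverage was 18.5% in CTX, 17.2% in MGE, 18.5% in CGE and 16.5% in LGE. Of the bases covered in any list, 89.0% were covered in all 4, the largest share of the 9 members with a peak.

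*Sox17* (ENSMUSG00000025902.13, chr1:4490931-4497354, minus strand), the endoderm and arterial factor of the same subgroup, had a window coverage of 19.8% in CTX, 21.5% in MGE, 20.3% in CGE and 20.2% in LGE. A peak of 2246 to 2314 bases lay over the 5′ end. A second one over the coding part of the gene, 3.58 to 6.89 kb downstream in MGE and 2.71 to 5.62 kb in CTX, had a −log10 q above that of at least 99.5% of the peaks in each list, the strongest peak at any member.

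*Sox18* (ENSMUSG00000046470.5, chr2:181669836-181671640, minus strand), the third F gene, which acts in lymphatic vessels, had a window coverage of 22.0% in CTX, 15.9% in MGE, 19.7% in CGE and 15.4% in LGE. Its 5′ peak reached 1.26 to 1.31 kb upstream in the GEs and 1.93 kb in CTX, and covered the whole coding sequence in each list. A short upstream peak in the 3 GEs lay within the body of the neighbouring *Tcea2* (chr2:181680310-181688071, plus strand), whereas CTX had a weak peak 8.57 to 9.89 kb downstream with a −log10 q of 1.17. The *Tcea2* promoter itself was free in all lists.

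*Sox8* (ENSMUSG00000024176.10, chr17:25565892-25570686, minus strand), the relative of *Sox9*, had a window coverage of 19.2% in CTX, 13.3% in MGE, 17.2% in CGE and 13.0% in LGE. The peak over its 5′ end was 3525, 2663, 3372 and 3017 bases wide in the same order, and a second one lay at the downstream edge of the window, beginning 13.6 to 14.6 kb from the 5′ end. The promoter of the neighbouring *Lmf1*, 8399 bases from the *Sox8* start, was free in all lists.

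*Sox14* (ENSMUSG00000053747.9, chr9:99874106-99876170, minus strand) had a window coverage of 34.1% in CTX, 44.0% in MGE, 34.4% in CGE and 34.2% in LGE. The 3 other lists hardly differed from each other, and MGE stood apart through 1 peak of 8634 bases that ran across the gene and the space behind it, where the other lists had a peak of 2436 to 2451 bases over the 5′ end and a separate one of 4118 to 4178 bases. This difference depended on the gap between the separate peaks. With peaks less than 3 kb apart joined, window coverage was 49.1% in CTX and 49.3% in MGE, CGE and LGE. *Sox14* was the only one of the 5 other members in the range of *Sox1*, *Sox2* and *Sox21*.

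The neural members were next compared with the other members. Over the whole window the neural members had the higher median coverage: 32.3% against 19.8% in CTX, 35.2% against 17.2% in MGE, 36.1% against 19.7% in CGE and 32.4% against 16.5% in LGE. The difference was 12.5, 18.0, 16.3 and 15.9 percentage points in the same order, with a mean of 15.7. The groups overlapped in every list, with *Sox9* and *Sox11* below all other members in MGE, CGE and CTX and *Sox14* beside the upper neural members. A covered base in every list was found for 4 of the 5 neural and 5 of the 5 other members, against 36.1% of all protein-coding genes, and the median window coverage over all genes was 0% in each list. With the mean of the 5 genes in place of the median, the difference was 3.39 points.

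**Figure D2:**
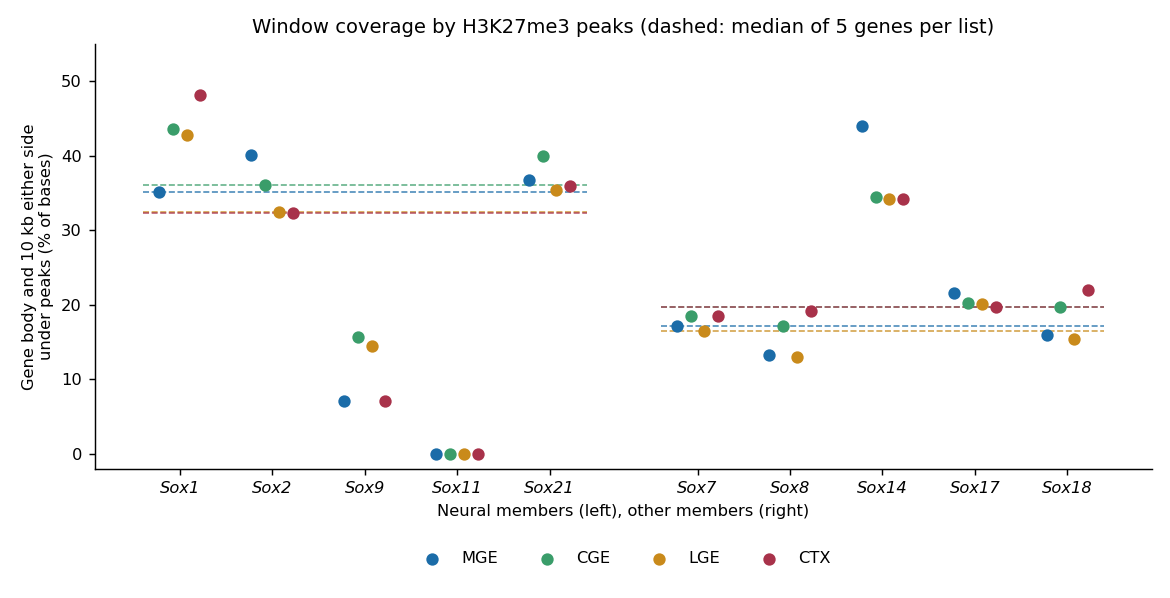
Window coverage (percent of the bases of the gene body and 10 kb either side under H3K27me3 peaks) of each member, 1 point per merged list; dashed lines are the medians of the 5 neural and the 5 other members per list. The neural medians lie at 32.3% to 36.1% and the other medians at 16.5% to 19.8%, while *Sox11* is at 0% and *Sox14* at 34.1% to 44.0%.

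The direction of this difference depended on the window. Over the gene body alone the median of the neural members was lower, by 32.1 points on the mean of the 4 lists (difference −32.1), and with 5 kb either side the difference was −3.88 points. The gene body was covered over 15.7%, 40.4%, 37.3% and 26.5% in the neural members (medians in MGE, CGE, LGE and CTX) and over 62.5%, 61.1%, 61.4% and 63.2% in the other members. In the 10 kb downstream the order was the opposite, with medians of 24.6%, 26.9%, 24.2% and 14.8% in the neural and 5.66%, 4.90%, 2.17% and 12.3% in the other members. In the 10 kb upstream the neural medians (12.0%, 17.6%, 16.2% and 4.79%) were below the other medians (18.3%, 19.4%, 18.2% and 19.3%) in each list.

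Single members differed in where the covered bases lay. At *Sox1* the upstream 10 kb were covered over 65.5% in CTX, 55.2% in MGE, 73.2% in CGE and 71.3% in LGE, whereas the gene body was covered over 15.7% to 26.5%. At *Sox18* the gene body was covered over 91.1%, 100%, 85.5% and 86.2% (MGE, CGE, LGE and CTX), and the downstream 10 kb over at most 13.2%. The gene body of *Sox21*, covered over 70.9% to 73.5%, lay above the median of its group, and that of *Sox7*, covered over 18.3% to 20.8%, lay below the median of its own.

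**Figure D3:**
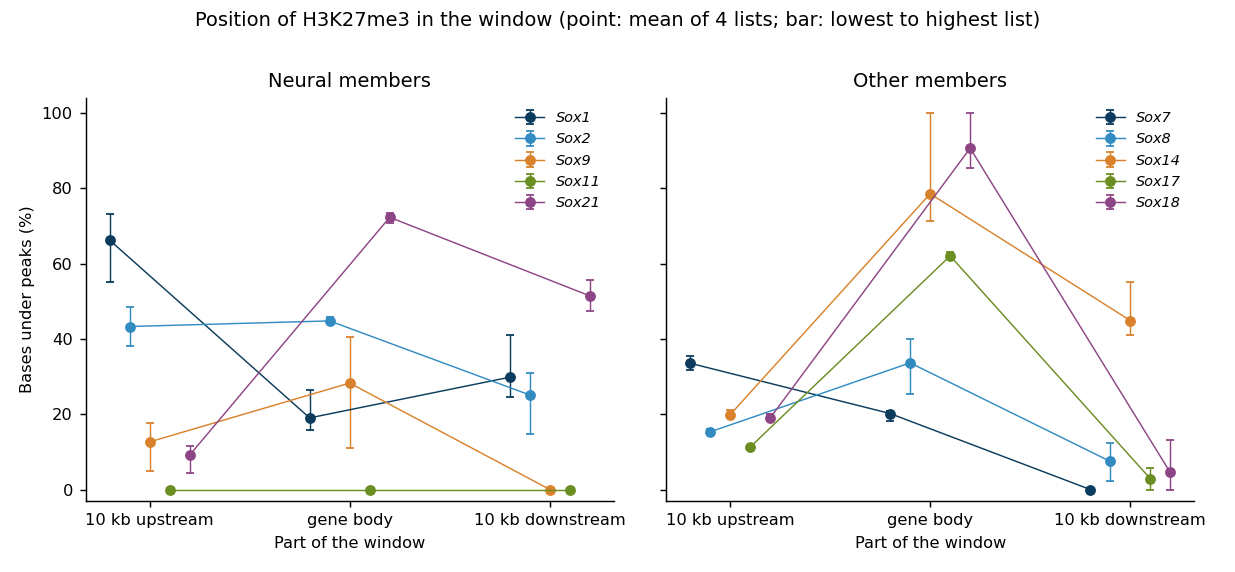
Share of bases under H3K27me3 peaks in the 10 kb upstream, the gene body and the 10 kb downstream of each member; points are means of the 4 merged lists and bars run from the lowest to the highest list. *Sox1* is highest upstream (55.2% to 73.2%), and the highest shares over the gene body are those of *Sox18*, *Sox14* and *Sox21*.

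Promoter coverage, the share of the promoter under peaks, had the higher median in the other members in each list, and the groups overlapped through *Sox2* and, in the GEs, *Sox9*. The median was 80.6% against 0% in CTX, 63.2% against 28.7% in MGE, 65.6% against 27.3% in CGE and 65.3% against 26.2% in LGE. Of the promoters, 5 of 5 other members were marked in MGE and 4 of 5 in CGE, LGE and CTX, against 2 of 5 neural members in each GE and 1 of 5 in CTX. The background over all protein-coding genes was 7.14% in CTX, 6.47% in MGE, 8.33% in CGE and 6.52% in LGE. In all 4 lists, 4 other members (*Sox7*, *Sox8*, *Sox17* and *Sox18*) and 1 neural member (*Sox2*) were marked, against 4.72% of all genes. With peaks less than 3 kb apart joined, the order of the medians turned in the GEs and not in CTX. The other median was then 72.6% against 77.7% in MGE, 78.0% against 100% in CGE and 74.9% against 100% in LGE. In CTX it was 96.5% against 0%. All neural members but *Sox11* were marked in each GE under this setting.

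Single promoters differed within each group. *Sox2* was covered over 77.7%, 84.8%, 81.3% and 77.8% (MGE, CGE, LGE and CTX), and *Sox9* over 59.8%, 63.6% and 56.4% in the GEs and 0% in CTX. *Sox1* stood at 24.2%, 20.9%, 15.4% and 0%, and *Sox21* at 28.6%, 27.3%, 26.1% and 22.1%, although both had a peak over the 5′ end in the GEs. The upstream edge of that peak lay 309 to 573 bases from the 5′ end.

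Among the other members, *Sox7* was covered over 100% in every list and *Sox8* over 72.6%, 78.0%, 74.9% and 80.5% (MGE, CGE, LGE and CTX). In the same order, *Sox17* was covered over 55.2%, 56.9%, 54.5% and 58.0%, and *Sox18* over 63.2%, 65.5%, 65.3% and 96.5%. *Sox14* lay at the threshold, with 52.3% in MGE just inside it and 48.6%, 48.1% and 48.6% in the other lists just outside. Counted from 2 kb before to 2 kb after the 5′ end, 5 other and 2 neural members (*Sox2* and *Sox21*) were marked in every list.

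**Figure D4:**
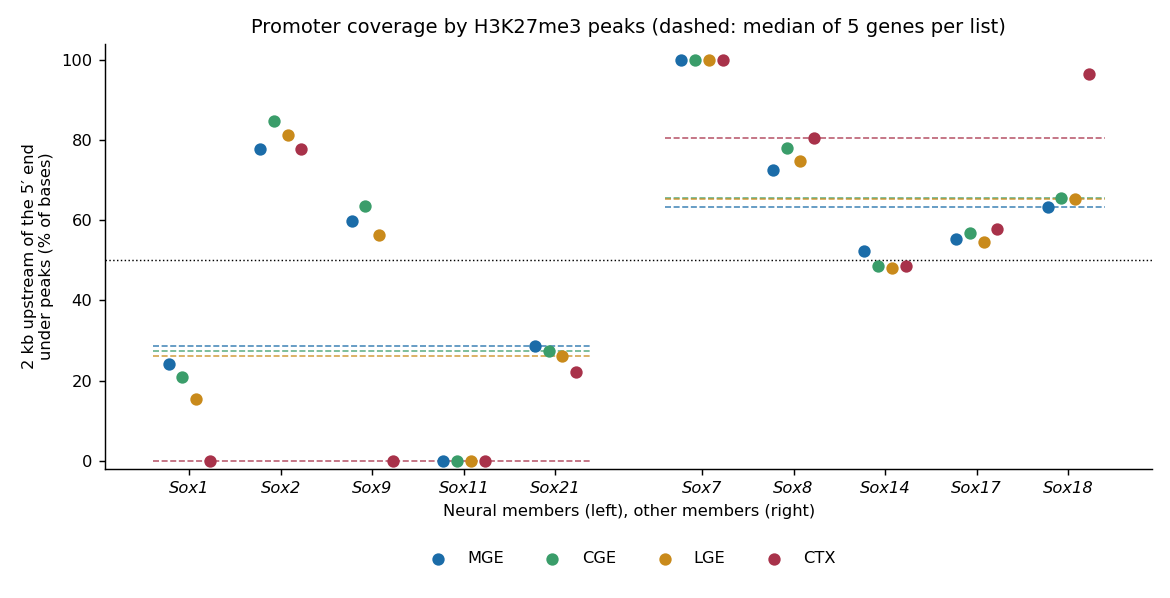
Promoter coverage (percent of the 2 kb before the 5′ end under H3K27me3 peaks) of each member, 1 point per merged list; dashed lines are medians of 5 genes per list and the dotted line is the 50% at which a promoter was called marked. *Sox7* is at 100% in all lists, *Sox14* lies within 48.1% to 52.3%, and *Sox1* and *Sox9* are at 0% in CTX alone.

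A peak over the 5′ end itself was called in every list for 5 of 5 other members and for 2 of 5 neural members (*Sox2* and *Sox21*), against 14.5% of all protein-coding genes. In each GE 4 neural members had such a peak, and in CTX 2 did. The share over all genes was computed for the 4 lists together and not for single lists. The −log10 q of these peaks was ranked among all peaks of its list. The other members stood at percentiles 82.7 to 98.8 in MGE, 90.0 to 99.0 in CGE, 83.5 to 98.3 in LGE and 88.5 to 98.2 in CTX, and the neural members at 56.2 to 78.0, 72.7 to 90.4, 34.9 to 86.2 and 60.6 to 77.7 in the same order. The groups did not overlap in MGE, with 4 neural members, and CTX, with 2, and overlapped in CGE and LGE through *Sox2*. The ranks of peaks over the 5′ ends of all protein-coding genes were not computed, so this has no background.

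Fold enrichment over the local background, the second strength that the peak caller gave, did not order the groups in this way. *Sox7*, *Sox14* and *Sox17* had peaks with a fold enrichment in the low percentiles of their lists, for example 12.8 at *Sox7*, 2.30 at *Sox14* and 8.59 at *Sox17* in MGE, and so did the neural *Sox1* and *Sox21*, with 9.74 and 13.9 in the same list. The peak over *Sox2* stood at percentile 62.7 in CTX, 56.2 in MGE, 78.1 in CGE and 81.1 in LGE, and that over *Sox18* at 66.3, 61.7, 66.7 and 66.2 in the same order. Across both groups the fold enrichment of the peaks over the 5′ end was between 1.71 and 3.79.

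**Figure D5:**
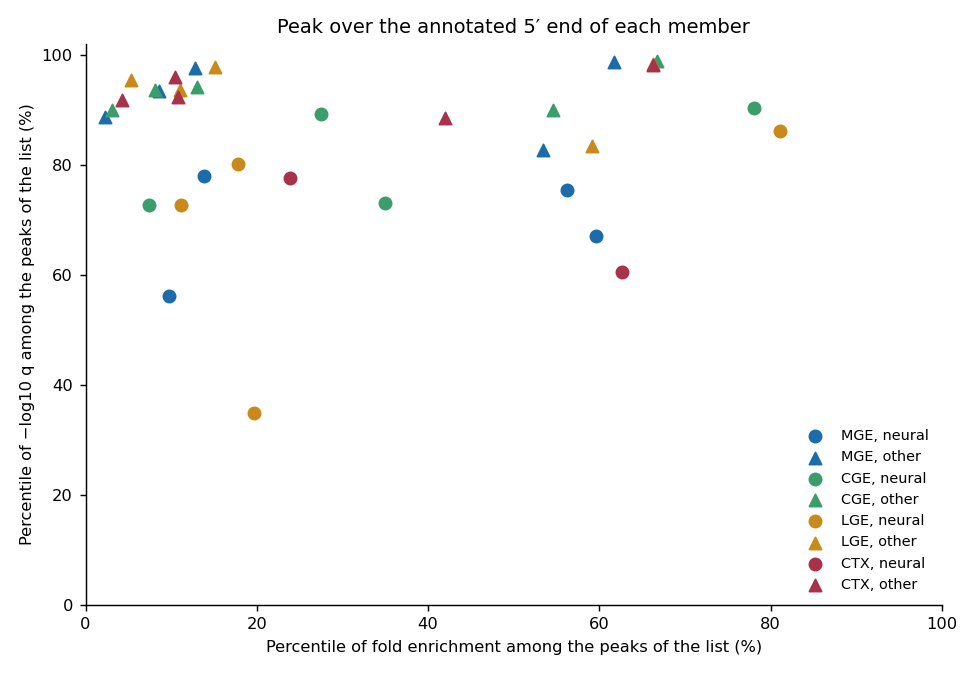
Peaks over the 5′ end of each member, placed by the percentile of their fold enrichment (x axis) and of their −log10 q (y axis) among all peaks of the same merged list; circles are neural and triangles other members, coloured by list. The triangles lie at percentile 82.7 or above on the y axis and spread from 2.30 to 66.7 on the x axis, and the circles reach down to 34.9 on the y axis.

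The next comparison was over the regions. Window coverage differed by at least 10 points between the highest and the lowest list for 1 of the 10 members, against 2.02% of all protein-coding genes. This was *Sox1*, with 12.9 points between MGE and CTX. The share over all genes includes those with little or no coverage, which cannot differ by 10 points. The members just below the threshold were *Sox14* with 9.88 points and *Sox9* with 8.57 points, and *Sox17* had the smallest spread of the members with peaks, 1.76 points. The CTX value of *Sox1* included 2 weak peaks with a −log10 q of 1.45 and 1.79 (percentiles 10.2 and 19.7), and the call depended on the peaks kept. When each list was held to the number of peaks of the shortest one, no member reached 10 points, and when the lists were held to equal covered bases, *Sox9* did (14.4 points) and *Sox1* did not. With q under 0.001, both did, with 22.8 points at *Sox1*, where MGE had the fewest bases left, and 13.7 points at *Sox9*. With peaks less than 3 kb apart joined, *Sox1* had 48.1% in CTX and 53.2% to 54.4% in the GEs, so that CTX was its lowest list. The spread of *Sox14* was then 0.236 points.

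Of the 70.9 kb covered in any list within the 10 windows, 60.5% were covered in all 4 lists. The share was 54.9% of 38.3 kb at the neural and 67.1% of 32.6 kb at the other members. Pairs of lists shared between 67.2% (MGE and CTX) and 88.9% (CGE and LGE) of the bases that either covered. The values for CTX were 71.9% with CGE and 69.5% with LGE, and those for MGE were 80.7% with CGE and 81.5% with LGE. Over the 10 windows together, the 3 GEs were thus closer to each other than any of them was to CTX. This order held at *Sox1*, *Sox9*, *Sox17*, *Sox18* and *Sox21* and not at *Sox2*, *Sox7*, *Sox8* and *Sox14*. CGE and CTX shared 99.5% at *Sox7*, 89.7% at *Sox8* and 99.1% at *Sox14*. The same shares over all genes were not computed.

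The bases that set CTX apart lay at several members. CTX alone covered 2392 bases at *Sox1*, 1936 at *Sox18* and 961 at *Sox9*, and lacked 1744 bases at *Sox9*, 1096 at *Sox17*, 1073 at *Sox2* and 1054 at *Sox21* that all 3 GEs covered. At *Sox1* and *Sox9* the 5′ end was among the bases covered in the GEs and free in CTX. The *Sox1* values depended on the edges of the promoter: from 2 kb before to 2 kb after the 5′ end its coverage was 31.2%, 31.0% and 28.1% in the 3 GEs (MGE, CGE and LGE) and 32.1% in CTX. MGE alone covered 2123 bases at *Sox14*, most of them between its 2 separate peaks in the other lists.

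The protein-coding genes outside these windows with the values most like those of *Sox1* over the 4 lists were *Tlx2*, *Espn* and *Otp*, at a distance (square root of the summed squared differences of the 4 window coverages) of 4.99, 5.09 and 5.21 points. *Otp*, a hypothalamic homeobox gene, had a window coverage of 38.0%, 46.9%, 41.1% and 45.7% (MGE, CGE, LGE and CTX).

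Among all protein-coding genes, 9 of the members ranked high by mean window coverage and *Sox11*, at 0%, did not. A higher mean window coverage was found for 0.524% of the genes at *Sox1*, 0.731% at *Sox21*, 0.749% at *Sox14* and 0.864% at *Sox2*. The corresponding share was 2.40% at *Sox17*, 2.99% at *Sox18*, 3.22% at *Sox7*, 4.00% at *Sox8*, 7.44% at *Sox9* and 55.7% at *Sox11*. The windows of the members were 21805 to 28311 bases long, and the genes were not matched for length.

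*Sry*, on the Y chromosome, was not analysed here, and the 9 further Sox genes had a median of their mean window coverage of 2.15%. The highest were *Sox3*, the X-linked relative of *Sox1* and *Sox2*, with 26.2%, *Sox10* (glia and neural crest) with 10.8%, *Sox13* with 6.59% and *Sox12* with 2.90%. The lowest were *Sox4*, the closest relative of *Sox11*, and *Sox15*, both with 0%, *Sox5* with 0.791% and *Sox6* with 1.81%. *Sox5* and *Sox6*, which are long genes, had a marked promoter in every list, and 6 of the 9 were marked in none. *Sox3* promoter coverage was 49.8% in CTX, 33.6% in MGE, 98.5% in CGE and 100% in LGE.

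Genes of the lineages in which the members act were compared by the same promoter rule. Of 10 neural progenitor genes, 3 were marked in MGE, CGE and LGE and 4 in CTX, and the highest were *Pax6* (85.0% to 100%) and *Hes5* (62.5% to 88.8%), while *Fabp7* and *Notch1* were free in all lists. Of 10 endoderm genes, 3 were marked in MGE and CTX, 2 in CGE and 1 in LGE, and none in all 4. *Foxa1*, *Foxa2* and *Pdx1* were at 100% in 3 lists each, with 38.8% and 32.6% at *Foxa1* and *Foxa2* in LGE and 36.9% at *Pdx1* in CGE, while *Hnf4a* and *Afp* were free. Their window coverage was 48.9% to 60.2% at *Foxa1*, 50.8% to 59.8% at *Foxa2*, 30.8% to 37.0% at *Pdx1* and 0% at *Hnf4a* and *Afp*. A promoter below the threshold in 1 list thus did not mean a window without peaks there.

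Of 10 endothelial genes, 3 were marked in each list, *Tal1* (100%), *Flt1* (90.2% to 91.3%) and *Kdr* (84.0% to 100%), and 6, with *Cdh5* and *Tek* among them, were free in all lists. Of 8 cartilage and gonad genes, 2 were marked in all 4 lists, *Dmrt1* (81.2% to 83.1%) and *Acan* (76.1% to 81.7%), and *Amh* and *Col9a1* were free. Against the background of 4.72% for promoters marked in every list, the counts were 3 of 10 neural progenitor, 0 of 10 endoderm, 3 of 10 endothelial and 2 of 8 cartilage and gonad genes, beside 4 of 5 other and 1 of 5 neural members.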

How the data were processed

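H3K27me3 CUT&Tag samples were assigned to MGE, CGE, LGE or CTX from their labels. The authors aligned reads to GRCm38 (mm10) with Bowtie2, took out duplicates with Picard, pooled the samples of each region with samtools and called broad peaks with MACS on the pooled reads. The MACS version and control are not given in the sources used here. For each peak, the deposited lists give the position, the fold enrichment, which is a ratio, and a significance as −log10 q, which were used as deposited to rank and filter peaks within a list. A pooled list weighs each sample by its reads. The lists hold no read counts per peak, so no interval is given. The article states the reads of each library, which were most for CGE, then CTX, LGE and MGE, the order of the numbers of peaks, so region and depth cannot be told apart.

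Gene bodies and 5′ ends came from GENCODE M21, and upstream sequences from RefSeq (GRCm38.p6), with coordinates counted from 1. Peaks on chromosomes 1 to 19 and X were used, and coverage was computed for all 21755 protein-coding genes with Python 3.11.15, numpy 2.4.6 and pandas 2.3.3, after a test on simulated intervals. All 10 members were named. Of the 9 further Sox genes, the 4 of highest and the 4 of lowest mean window coverage were named, of each lineage list up to 3 of highest and 2 of lowest mean promoter coverage, and the 3 genes most like the member of largest spread. Some genes of these lists entered the counts and are not reported here. The members and lists were chosen with earlier results of these data known. The protocol in the labels mentions combining nuclei across regions, but each sample is labelled with 1 region, and the lists were read by these labels.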

Additional observations from a re-analysis of the deposited data

How the results depend on the processing

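No paired analysis was possible because peaks were called on merged samples, and no replicate could be left out for the same reason. The neural minus other difference in median window coverage, 15.7 points, was 11.7 with q under 0.001, 26.0 with peaks less than 3 kb apart joined, 15.8 with an equal number of peaks, 16.1 with equal covered bases, 15.3 with the RefSeq annotation, 14.9 without neighbouring coding genes, 7.04 with 50 kb either side, 3.39 with means of the 5 genes, and turned to −3.88 with 5 kb either side and −32.1 over the gene body alone. The neural members with a marked promoter in all lists went from 1 to 2 when any covered base counted and over 2 kb either side. The members differing by 10 points between lists went from 1 to 2 with q under 0.001, with joined peaks and without neighbouring genes, to 3 with 5 kb either side, to 5 over the gene body, and to 0 with an equal number of peaks and at 20 points. *Sox1* was not among them with joined peaks (6.31 points, CTX then being the lowest list; *Sox9* and *Sox21* were) or with 5 kb either side (7.57 points; *Sox9*, *Sox14* and *Sox21* were). The CTX minus GE promoter difference of *Sox1* turned from −20.2 to 1.98 points over 2 kb either side. The number of marked other members stayed within 1.5 times under each alternative. Of 320 values of single members, 165 were identical under the alternative, 155 changed, and 10 of these changed sign, 9 of them CTX minus GE differences in window coverage that were under 10 points at first. Among these, *Sox1* went from 7.57 to −5.90 and *Sox2* from −3.86 to 3.55 points with joined peaks, *Sox18* from 5.00 to −1.05 with an equal number of peaks and −6.00 over the gene body, and *Sox14* from −3.42 to 2.21 with 50 kb either side. Joining peaks took the *Sox1* and *Sox21* promoters to 100% in the GEs and that of *Sox9* to 100% in CGE and LGE. The neural median of promoter coverage then lay above the other median in each GE. The causes were not tested. Region and merging, and region and sequencing depth, cannot be told apart in these lists.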
